A study of Mus musculus with 6 samples.

Results

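The genes described here are those of DNA repair and of the response to double-strand breaks. They were taken from the deposited count table by name, as protein-coding genes whose symbols belong to the Rad, Xrcc, Ercc, Fanc, Msh, Mlh, Pms, Brca, Chek, Trp53, Parp, Lig and translesion polymerase series or are Atm, Atr, Prkdc, Nbn, Mre11a, Xpa, Xpc, Ogg1, Ung, Rrm2b or Mdc1. This gave 87 of the 14774 genes in the table. A few genes that the names brought in and that were not placed in a repair pathway are kept apart below. Of the 87 members, 84 passed the filter on low counts and were among the 11939 genes tested.

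RNA was sequenced from 3 libraries of MA-10 cells, an untreated wild type mouse tumor Leydig cell line, and from 3 libraries of untreated STARKO1 cells, in which Star had been knocked out. STARKO1 is 1 clone, expanded from a single sorted MA-10 cell after transfection with Cas9 and gRNAs against Star, so that an effect of losing STAR and a difference particular to the clone cannot be told apart. The labels do not say that the libraries of a cell line came from separate cultures, so the p values measure the spread between these libraries, which may be technical. The total count was between 14114360 and 19530069 per library, and the members together took between 0.332% and 0.517% of it.

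Cells repair breaks across both strands of DNA either by homologous recombination, which copies the intact sister chromatid and therefore works after replication, or by end joining, which ligates the ends at any time in the cell cycle. The kinases ATM, ATR and DNA-PK sense breaks and stalled replication forks and signal to the checkpoint kinases CHK1 and CHK2 and to p53. Damage to bases and single strands is handled by separate pathways of nucleotide excision, base excision and mismatch repair, and crosslinks between the strands by the Fanconi anemia proteins. Many of these genes are transcribed most in proliferating cells, and p53 switches on a set of genes that arrest the cell cycle, supply nucleotides or promote cell death.

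The library labels were checked first with the targeted gene. Star had 60.9, 109 and 61.4 CPM in MA-10 cells against 2.06, 2.71 and 2.02 CPM in STARKO1 cells, in the order of replicates 1, 2 and 3, as for every gene below. CPM stands for the counts of a gene relative to the TMM-adjusted size of its library. The log2 fold change, always STARKO1 over MA-10, was -5.09 (SE 0.331, adjusted p = 0.00121) by the quasi-likelihood test of edgeR with Benjamini-Hochberg adjustment, where SE is the standard error. Of 7 Leydig cell markers, all were tested and 2, Star and Hsd3b1, were differentially expressed. Of 14 markers of macrophages, Sertoli cells, endothelium, peritubular cells and germ cells, 6 had a row in the table and 4 were tested. Their summed level was between 35.9 and 49.96 CPM in the MA-10 libraries and between 129.7 and 133 CPM in the STARKO1 libraries. Most of this was Cdh5, an endothelial cadherin, which was higher in STARKO1 cells (log2 fold change 1.84, adjusted p = 0.00596). Pecam1, another endothelial marker, was not differentially expressed (log2 fold change 0.70, adjusted p = 0.336). Pecam1, Cd68 and Myh11 were under 1 CPM in every library. The part of these markers in the results below was not tested. In bulk RNA, fewer cells of a type and less RNA per cell cannot be told apart.

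The MA-10 libraries did not resemble each other equally. Pearson's r of log2 CPM over the 84 tested members, which are genes and no replicates, was 0.982 for MA-10 replicates 2 and 3, but 0.896 and 0.932 for MA-10 replicate 1 with these. With the STARKO1 libraries, MA-10 replicate 1 gave 0.960 to 0.969, and the STARKO1 libraries with one another gave 0.994 to 0.996. For 50 of the 84 members (59.5%), MA-10 replicate 1 was nearer to the mean of STARKO1 cells than to the mean of MA-10 replicates 2 and 3, against 69.7% of all tested genes. Abundant noncoding 7SL RNA made up 14.4% of MA-10 replicate 2, 6.63% of MA-10 replicate 3 and 1.81% to 2.37% of the other libraries, and its part in the results was not tested. Chi-square between 2 libraries of a cell line was at least 4.79 for each degree of freedom. It was taken over genes above a minimum count and scaled by total count, so differences in composition enter it. On that scale no 2 libraries of a cell line agreed within sampling noise. For this reason the level of each member is given by library.

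Among the members, Fanca, Polq, Parp3 and Atr were higher in STARKO1 cells, by 1.73-fold for Atr to 3.00-fold for Fanca, and Trp53inp1 and Rrm2b were lower, by 3.54-fold and 2.38-fold. These 6 of 84 tested members (7.14%) had an adjusted p under 0.05 and are referred to as differentially expressed, against 9.04% of all 11939 genes tested, a share near that of all genes. Of the genes tested, 4.3% were higher and 4.74% were lower. At an unadjusted p under 0.05, 22 members differed, 11 in each direction, against 37.6% of all genes. The median log2 fold change was 0.09 over the members and -0.05 over all genes tested. For 33 members the libraries of the cell lines did not overlap, with STARKO1 above MA-10 in 19 and below it in 14, against 42.5% of all genes, of which 21.5% were higher and 21% lower. With scaling by library size alone the median of all genes moved up by 0.43, Atr was the single member that passed, and of all genes 210 were higher and 120 lower, against 513 and 566 with TMM.

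**Figure D1:**
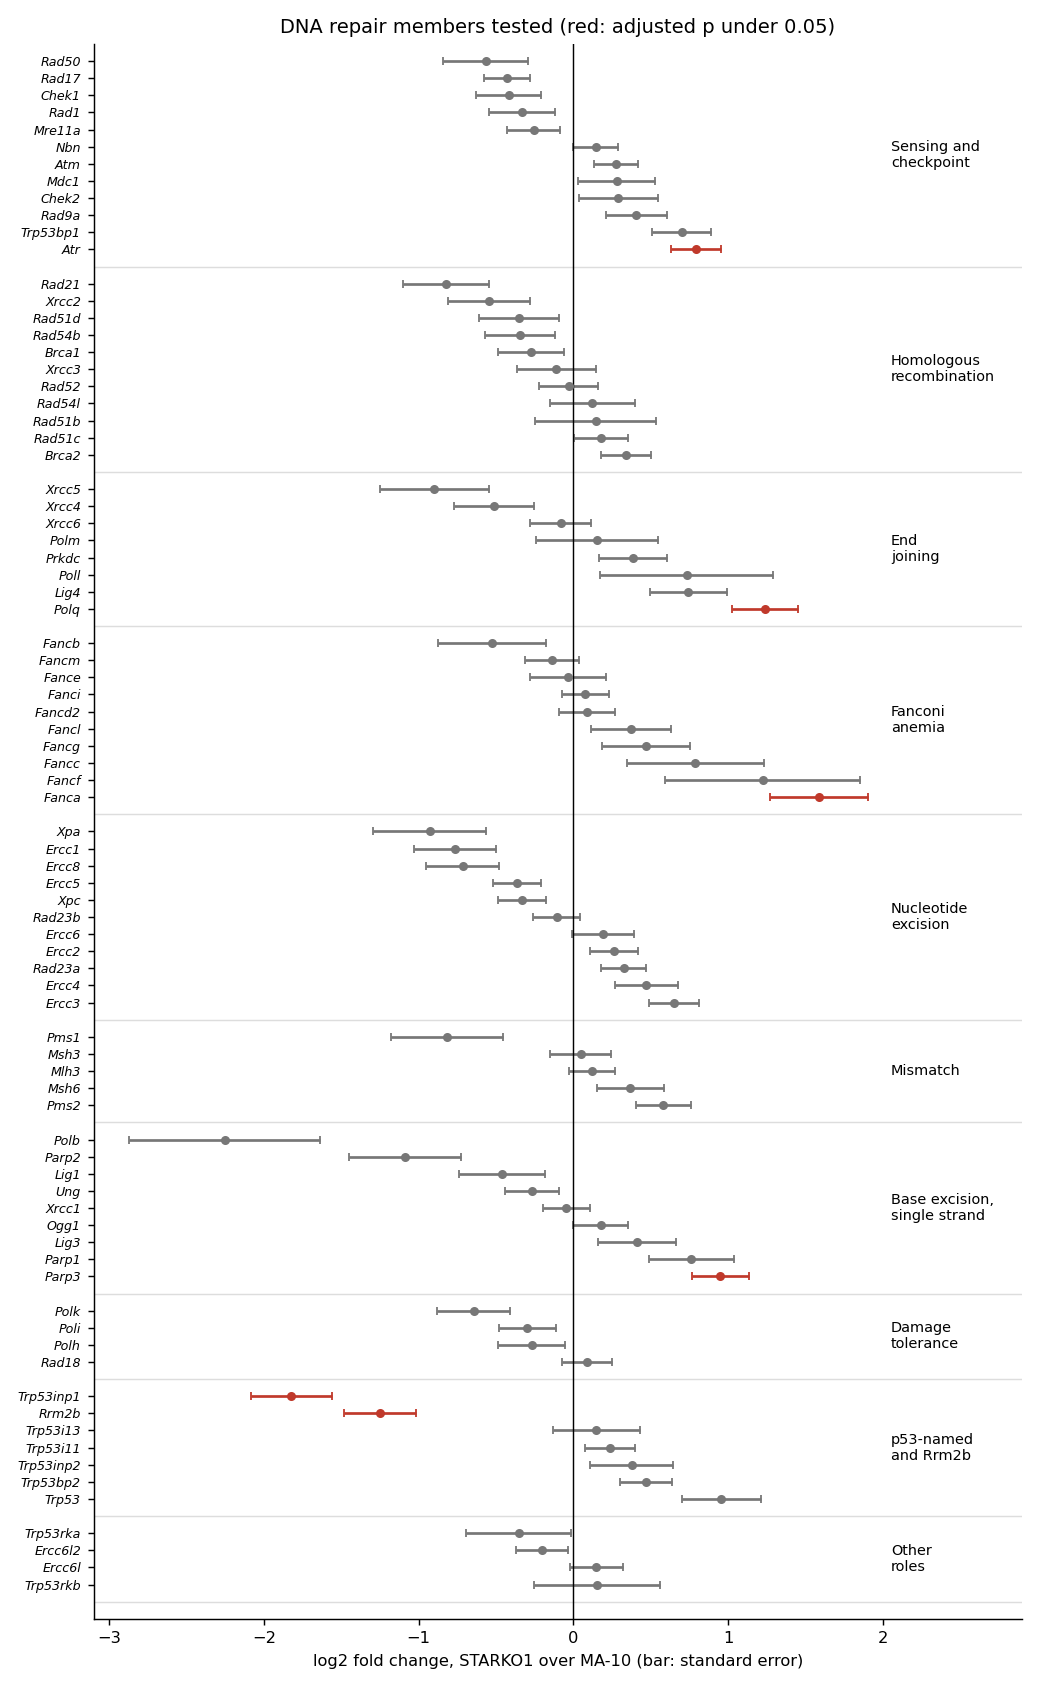
Log2 fold change of STARKO1 over MA-10 cells (horizontal axis) for 81 of the 84 tested members, grouped by role and ordered within a group. Points are edgeR estimates, bars are standard errors, and red marks the 6 members with an adjusted p under 0.05, 4 on the right and 2 on the left of 0.

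The regions before the start of the 4 members that were higher in STARKO1 cells are printed here because these are the genes that moved in the same direction, each from 250 bases before to 50 bases after the annotated start, from RefSeq on GRCm38.p6, 5′ to 3′ on the strand of the gene. Capitals mark the words searched on both strands, which were CCAAT, bound by NF-Y, TTTGAA or TTCGAA, the cell cycle homology region (CHR) of many genes of late cell cycle, and TTTCGCGC, TTTGGCGC or TTTCCCGC, bound by E2F factors.
Fanca chr8:123318527-123318826 (minus strand): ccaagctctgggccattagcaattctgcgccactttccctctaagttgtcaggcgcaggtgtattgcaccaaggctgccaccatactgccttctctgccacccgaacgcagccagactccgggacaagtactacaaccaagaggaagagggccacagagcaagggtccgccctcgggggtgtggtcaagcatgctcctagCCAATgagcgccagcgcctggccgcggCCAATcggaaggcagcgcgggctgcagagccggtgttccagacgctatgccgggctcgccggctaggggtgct
Polq chr16:37011536-37011835 (plus strand): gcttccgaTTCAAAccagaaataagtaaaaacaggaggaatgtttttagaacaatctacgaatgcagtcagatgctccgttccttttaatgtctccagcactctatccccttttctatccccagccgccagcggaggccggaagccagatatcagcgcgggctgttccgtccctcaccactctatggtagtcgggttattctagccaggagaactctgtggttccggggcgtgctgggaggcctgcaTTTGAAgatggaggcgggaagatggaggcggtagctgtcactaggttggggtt
Parp3 chr9:106476900-106477199 (minus strand): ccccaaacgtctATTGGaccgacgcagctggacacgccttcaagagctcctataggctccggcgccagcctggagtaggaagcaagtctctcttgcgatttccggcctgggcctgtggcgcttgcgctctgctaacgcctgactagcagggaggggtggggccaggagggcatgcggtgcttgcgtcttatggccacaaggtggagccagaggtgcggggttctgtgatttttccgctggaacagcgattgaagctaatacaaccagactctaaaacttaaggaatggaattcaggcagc
Atr chr9:95857347-95857646 (plus strand): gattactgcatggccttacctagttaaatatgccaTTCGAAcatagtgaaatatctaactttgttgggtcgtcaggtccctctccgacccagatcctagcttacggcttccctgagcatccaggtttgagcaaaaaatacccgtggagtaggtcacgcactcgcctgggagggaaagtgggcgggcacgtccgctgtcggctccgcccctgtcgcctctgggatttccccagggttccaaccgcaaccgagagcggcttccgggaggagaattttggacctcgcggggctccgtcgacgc
With positions counted in bases from the start, Fanca held CCAAT at -50 and -23, and Parp3 held it at -238 on the other strand. Polq held a CHR word at -242 on the other strand and another at -3, and Atr held one at -215. None of the 4 windows held an E2F word. RefSeq windows were matched for 66 of the 87 members, with 76 windows in all. An E2F word was found in 11 of these windows (14.5%), which belong to Brca2, Chek2, Fancg, Lig1, Mdc1, Msh3, Msh5, Msh6, Rad51c and Xrcc6, against 1.84% of all 32851 windows of 300 bases. CCAAT was found in 50% of the members' windows against 37.4% of all, and a CHR word in 5.26% against 19.2%. The words are letters found in these windows and not measured sites.

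Of the 12 tested genes that sense damage and pass the signal on, 1 was higher, none was lower, and 11 were not differentially expressed. The share called was 8.33%, against 9.04% of all genes. Atr encodes the kinase that is activated by single-stranded DNA at stalled forks (chromosome 9, 95857597 to 95951781, plus strand of GRCm38). It had 23.2, 27.6 and 22.3 CPM in MA-10 cells against 43.4, 45.0 and 38.2 CPM in STARKO1 cells. The lowest STARKO1 library was thus above the highest MA-10 library, and the 3 MA-10 libraries lay close together. The mean level was 24.4 ± 2.83 CPM over the MA-10 libraries and 42.2 ± 3.54 CPM over the STARKO1 libraries (SD, n = 3 each), with a log2 fold change of 0.79 (SE 0.162, adjusted p = 0.0346) in edgeR's quasi-likelihood test. Atr has the longest exons of all members, 23629 bases in sum, and with offsets for gene length its adjusted p was 0.0891. Chek1, which encodes the checkpoint kinase that ATR activates, had 11.6, 18.04 and 16.3 CPM in MA-10 cells against 10.5, 12.5 and 11.4 CPM in STARKO1 cells. The direction of its estimate was opposite to that of Atr, at -0.42 (adjusted p = 0.187), and the groups overlapped.

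Atm, the kinase activated by broken ends, had 62.5, 69.5 and 71.0 CPM in MA-10 cells against 80.3, 83.6 and 81.4 CPM in STARKO1 cells. All STARKO1 libraries were above all MA-10 libraries, but the log2 fold change was 0.27 (adjusted p = 0.194). Chek2, the checkpoint kinase downstream of ATM, had 14.5, 7.72 and 9.86 CPM in MA-10 cells against 13.9, 13.8 and 11.7 CPM in STARKO1 cells, with MA-10 replicate 1 above the STARKO1 libraries and the other MA-10 libraries below them. Its log2 fold change was 0.29 (adjusted p = 0.418). The subunits of the complex that first binds broken ends gave estimates in both directions. Rad50 had 97.8, 172 and 204 CPM in MA-10 cells against 108, 107 and 104 CPM in STARKO1 cells, a log2 fold change of -0.57 (adjusted p = 0.176), and was per kilobase of exon the most abundant gene of the group. The estimates were -0.26 (adjusted p = 0.294) for Mre11a and 0.14 (adjusted p = 0.481) for Nbn. Trp53bp1, whose protein protects broken ends and favours end joining, had 59.0, 39.1 and 51.8 CPM in MA-10 cells against 83.5, 77.5 and 82.4 CPM in STARKO1 cells and a log2 fold change of 0.70 (adjusted p = 0.0614), just outside the threshold. The other members of the group were Mdc1, Rad1, Rad9a and Rad17, with adjusted p values of 0.422, 0.281, 0.176 and 0.0909.

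None of the 12 genes of homologous recombination was differentially expressed in edgeR's test, against 9.04% of all genes. At an unadjusted p under 0.05 there was 1, and 1 was called by DESeq2 and 0 by limma-voom. Of all genes, 37.6%, 24.8% and 7.86% passed in that order. Brca1, needed for resection of the broken ends, had 72.2, 91.7 and 119.8 CPM in MA-10 cells against 75.6, 80.2 and 78.6 CPM in STARKO1 cells. Brca2, which acts after resection to prepare strand exchange, had 53.03, 58.8 and 70.4 CPM in MA-10 cells against 75.9, 77.6 and 76.9 CPM in STARKO1 cells. The libraries of the cell lines overlapped for Brca1, and those of Brca2 were separate by a small margin. The log2 fold changes were -0.27 (adjusted p = 0.356) for Brca1 and 0.34 (adjusted p = 0.170) for Brca2. Rad21, the cleavable subunit of cohesin, which holds sister chromatids together, was per kilobase of exon the most abundant of all members, with 864, 1303 and 1618 CPM in MA-10 cells against 707, 739.8 and 691 CPM in STARKO1 cells. MA-10 replicate 1 lay nearer to the STARKO1 libraries than to the other MA-10 libraries. Its log2 fold change of -0.82 (SE 0.279, adjusted p = 0.0875) in edgeR's test had the largest size of the group and did not pass the threshold. Rad51b, Rad51c, Rad51d, Xrcc2 and Xrcc3, which assist strand exchange, had log2 fold changes of 0.14, 0.18, -0.35, -0.55 and -0.11, with adjusted p values of 0.177 or more.

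Of the 8 genes of end joining, 1 was higher (12.5%, against 9.04% of all genes called), none was lower and 7 were not differentially expressed. Polq encodes DNA polymerase theta, which joins ends through short stretches of homology (chromosome 16, 37011786 to 37095417, plus strand). It had 10.9, 7.63 and 11.7 CPM in MA-10 cells against 24.9, 20.6 and 25.6 CPM in STARKO1 cells. The groups did not overlap, and MA-10 replicate 1 lay among the other MA-10 libraries. The mean level was 10.1 ± 2.16 CPM over the MA-10 libraries and 23.7 ± 2.71 CPM over the STARKO1 libraries (SD, n = 3 each), with a log2 fold change of 1.23 (SE 0.213, adjusted p = 0.0228) in edgeR's test. The genes of classical end joining gave estimates in both directions. Prkdc, the catalytic subunit of DNA-PK, had 42.0, 24.5 and 32.4 CPM in MA-10 cells against 41.6, 46.4 and 41.2 CPM in STARKO1 cells, and its log2 fold change was 0.38 (adjusted p = 0.231). Xrcc5 and Xrcc6 encode the Ku heterodimer, which binds the ends and recruits DNA-PK. Xrcc5 had 57.6, 159.8 and 123.3 CPM in MA-10 cells against 61.7, 61.1 and 59.8 CPM in STARKO1 cells, a log2 fold change of -0.90 (adjusted p = 0.115), and Xrcc6 had 107, 164 and 128 CPM in MA-10 cells against 124, 131 and 122 CPM in STARKO1 cells, a log2 fold change of -0.08 (adjusted p = 0.773). In both genes MA-10 replicate 2 was the highest of the 6 libraries, and MA-10 replicate 1 was the lowest. Lig4, the ligase of this pathway, had 5.38, 3.12 and 3.87 CPM in MA-10 cells against 7.44, 6.84 and 6.57 CPM in STARKO1 cells and a log2 fold change of 0.74 (adjusted p = 0.0851).

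Of the 10 Fanconi anemia genes, 1 was higher (10%, against 9.04% of all genes called), none was lower and 9 were not differentially expressed. Fanca encodes a subunit of the core complex that attaches ubiquitin to FANCD2 and FANCI at crosslinks (chromosome 8, 123268300 to 123318576, minus strand). It had 12.3, 5.38 and 6.60 CPM in MA-10 cells against 22.6, 25.0 and 25.9 CPM in STARKO1 cells. MA-10 replicate 1 was the highest MA-10 library and was still well below the lowest STARKO1 library. The mean level was 8.10 ± 3.70 CPM over the MA-10 libraries and 24.5 ± 1.71 CPM over the STARKO1 libraries (SD, n = 3 each), with a log2 fold change of 1.58 (SE 0.317, adjusted p = 0.0328) in edgeR's test, the largest increase among the members. Without MA-10 replicate 1 the log2 fold change was 2.12, and with MA-10 replicate 1 alone it was 0.99. Other subunits of the core complex did not pass the threshold. Fancf had 4.41, 0.954 and 0.704 CPM in MA-10 cells against 4.73, 4.60 and 5.45 CPM in STARKO1 cells, with MA-10 replicate 1 just below the STARKO1 libraries and the other MA-10 libraries several times lower, and its log2 fold change was 1.22 (SE 0.629, adjusted p = 0.194). Fancb, which lies on the X chromosome, had 12.3, 28.9 and 32.9 CPM in MA-10 cells against 16.9, 16.6 and 17.8 CPM in STARKO1 cells and a log2 fold change of -0.53 (adjusted p = 0.294). Fancd2, the substrate of the complex, had 41.5, 28.9 and 31.3 CPM in MA-10 cells against 35.4, 37.3 and 35.4 CPM in STARKO1 cells. The estimate was 0.09 (adjusted p = 0.737) on the log2 scale, and the libraries of the cell lines overlapped, as they did for its partner Fanci, with 0.08 (adjusted p = 0.729).

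**Figure D2:**
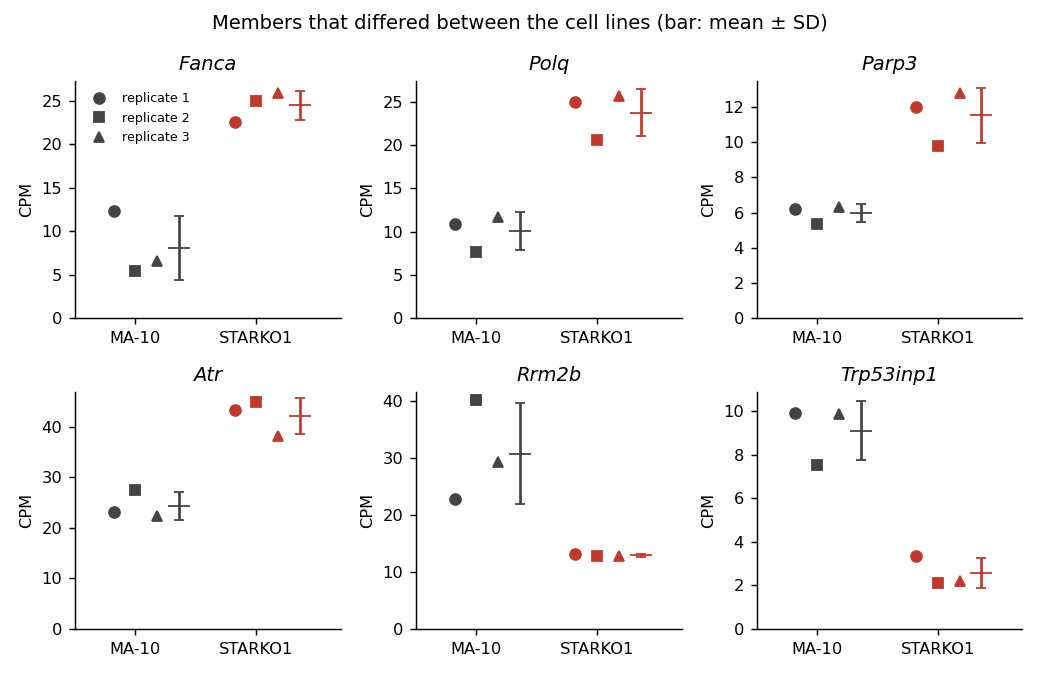
Level in CPM (vertical axes, from 0) of the 6 differentially expressed members in each library, with the mean ± SD of 3 libraries beside the points. Fanca, Polq, Parp3 and Atr lie higher in all STARKO1 libraries, and Rrm2b and Trp53inp1 lie lower, with no overlap between the cell lines in any panel.

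Of the 9 genes of base excision and single-strand break repair, 1 was higher, none was lower and 8 were not differentially expressed. The share called was 11.1%, against 9.04% of all genes. Parp3 encodes an ADP-ribosyltransferase that responds to breaks and assists end joining (chromosome 9, 106470322 to 106476949, minus strand). It had 6.18, 5.38 and 6.34 CPM in MA-10 cells against 12, 9.79 and 12.8 CPM in STARKO1 cells. The MA-10 libraries lay within about 1 CPM of each other and all were below the STARKO1 libraries. The mean level was 5.97 ± 0.517 CPM over the MA-10 libraries and 11.5 ± 1.57 CPM over the STARKO1 libraries (SD, n = 3 each), with a log2 fold change of 0.95 (SE 0.186, adjusted p = 0.0314) in edgeR's test. Parp1, which encodes the main sensor of single-strand breaks, had 447, 232 and 309 CPM in MA-10 cells against 549, 551 and 576 CPM in STARKO1 cells. All 3 STARKO1 libraries were above the MA-10 libraries, and the log2 fold change was 0.76 (adjusted p = 0.0961). Parp2, its close relative, had 27.0, 77.9 and 61.1 CPM in MA-10 cells against 26.2, 26.7 and 25.0 CPM in STARKO1 cells, a log2 fold change of -1.09 (adjusted p = 0.0858).

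Polb, the polymerase that fills the gap in base excision repair, had the largest estimate of all members and did not pass the threshold. It had 31.6, 209 and 161 CPM in MA-10 cells against 27.7, 30.5 and 26.0 CPM in STARKO1 cells. MA-10 replicates 2 and 3 were at least 5-fold above every other library, and MA-10 replicate 1 was just above the STARKO1 libraries. The log2 fold change of Polb was -2.25 (SE 0.619, adjusted p = 0.0623) in edgeR's test, with an estimate of -0.17 when MA-10 replicate 1 was set alone against the STARKO1 libraries. Ogg1, the glycosylase that removes oxidized guanine, had 6.18, 6.85 and 5.72 CPM in MA-10 cells against 6.41, 7.43 and 7.36 CPM in STARKO1 cells, with overlap and a log2 fold change of 0.18 (adjusted p = 0.488). Ung, Lig1, Lig3 and Xrcc1, the uracil glycosylase, the ligases and the scaffold of this pathway, had log2 fold changes of -0.27, -0.46, 0.41 and -0.05 with adjusted p values of 0.254 or more.

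None of the 11 genes of nucleotide excision repair was differentially expressed in edgeR's test, against 9.04% of all genes. At an unadjusted p under 0.05 there were 4, and 1 was called by DESeq2 and 0 by limma-voom. Of all genes, 37.6%, 24.8% and 7.86% passed in that order. The nearest was Ercc3, a helicase of the transcription factor TFIIH that opens DNA around the lesion, with 26.4, 20.4 and 21.8 CPM in MA-10 cells against 34.9, 35.4 and 37.4 CPM in STARKO1 cells. Its libraries were fully separate, and its log2 fold change was 0.65 (SE 0.161, adjusted p = 0.0525). Xpa, which verifies the lesion, had 19.99, 57.1 and 32.9 CPM in MA-10 cells against 21.04, 18.7 and 17.98 CPM in STARKO1 cells, and MA-10 replicate 1 lay among the STARKO1 libraries. The log2 fold change of Xpa was -0.93 (adjusted p = 0.116), the largest in size of the group. Xpc, the sensor of distorted DNA, had 33.7, 30.4 and 34.4 CPM in MA-10 cells against 24.0, 29.1 and 25.1 CPM in STARKO1 cells, a log2 fold change of -0.34 (adjusted p = 0.159). Rad23b, a partner of XPC, had 197, 195 and 183 CPM in MA-10 cells against 179, 176 and 179 CPM in STARKO1 cells and a log2 fold change of -0.11 (adjusted p = 0.610). For 9 of the 11 genes the libraries of the 2 cell lines did not overlap, 4 higher and 5 lower in STARKO1 cells, beside the 42.5% of all genes, although none passed the test.

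Of the 7 tested mismatch repair genes none was differentially expressed in edgeR's test, against 9.04% of all genes. At an unadjusted p under 0.05 there was 1, and 1 was called by DESeq2 and 0 by limma-voom. Of all genes, 37.6%, 24.8% and 7.86% passed in that order. Msh6, which takes part in recognising mismatches, had 252, 155 and 209.7 CPM in MA-10 cells against 267, 261 and 267 CPM in STARKO1 cells. Its libraries were separate, with MA-10 replicate 1 nearest to STARKO1 cells, and its log2 fold change was 0.37 (adjusted p = 0.247). Pms1, which acts after recognition, had 23.7, 58.2 and 63.9 CPM in MA-10 cells against 28.8, 29.7 and 24.3 CPM in STARKO1 cells. MA-10 replicate 1 was below all STARKO1 libraries in Pms1, but the other MA-10 libraries were above them, so the sign depended on the MA-10 library, with a log2 fold change of -0.81 (adjusted p = 0.148) over all libraries and 0.22 for MA-10 replicate 1 alone. Pms2 had 9.96, 9.97 and 8.19 CPM in MA-10 cells against 13.3, 15.9 and 12.9 CPM in STARKO1 cells, a log2 fold change of 0.58 (adjusted p = 0.0749).

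Of the 4 tested genes of damage tolerance none was differentially expressed, against 9.04% of all genes. At an unadjusted p under 0.05 there was 1, and 0 were called by DESeq2 and by limma-voom. Of all genes, 37.6%, 24.8% and 7.86% passed in that order. Polh, the translesion polymerase that copies past ultraviolet damage, had 51.5, 30.7 and 37.2 CPM in MA-10 cells against 32.6, 34.8 and 31.8 CPM in STARKO1 cells, and its log2 fold change was -0.27 (adjusted p = 0.374). Polk had 44.3, 73.2 and 78.4 CPM in MA-10 cells against 41.8, 42.3 and 41.1 CPM in STARKO1 cells, a log2 fold change of -0.64 (adjusted p = 0.100), the largest in size of the group. Rad18, the ubiquitin ligase that marks PCNA at stalled forks, was per kilobase of exon the most abundant gene of the group, with 52.4, 53.8 and 67.1 CPM in MA-10 cells against 64.6, 59.7 and 60.0 CPM in STARKO1 cells and a log2 fold change of 0.09 (adjusted p = 0.698). The 3 members that did not pass the filter were at low counts. Poln had 9, 11 and 10 counts in MA-10 cells and 10, 4 and 5 in STARKO1 cells. Msh5, which acts in meiosis, had 16, 8 and 7 counts against 10, 7 and 2, and Fancd2os had 4, 3 and 4 counts against 2, 0 and 0. At these depths 3 counts were at most 0.264 CPM. In CPM each of the 3 genes was lower in every STARKO1 library than in every MA-10 library, beside 21% of all tested genes. The counts of Poln and Msh5 overlapped before scaling, so at these low counts the separation depends on the library sizes. Their differences were not tested with the filter.

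The p53 group of 7 genes was put together here from Rrm2b and 6 genes named after Trp53. It held the 2 members that were lower in STARKO1 cells, beside 4.74% of all genes. The other 5 genes were not differentially expressed and had estimates above 0, with a median log2 fold change of 0.23 over the 7. Trp53inp1 encodes a stress-induced nuclear protein that promotes p53-dependent cell death and autophagy, and is a known p53 target (chromosome 4, 11156431 to 11174379, plus strand). It had 9.91, 7.55 and 9.86 CPM in MA-10 cells against 3.36, 2.12 and 2.19 CPM in STARKO1 cells, from 173, 87 and 112 counts and from 78, 36 and 39 counts. The highest STARKO1 library was at less than 50% of the lowest MA-10 library, and MA-10 replicate 1 was the highest library. The mean level was 9.11 ± 1.35 CPM over the MA-10 libraries and 2.56 ± 0.693 CPM over the STARKO1 libraries (SD, n = 3 each), with a log2 fold change of -1.82 (SE 0.261, adjusted p = 0.0129) in edgeR's test, the lowest adjusted p of all members. Rrm2b encodes the p53-inducible small subunit of ribonucleotide reductase, which supplies deoxynucleotides for repair and for mitochondrial DNA in cells that are not replicating (chromosome 15, 37923952 to 37961318, minus strand). It had 22.8, 40.2 and 29.2 CPM in MA-10 cells against 13.2, 12.8 and 12.8 CPM in STARKO1 cells. The STARKO1 libraries were nearly equal, while the MA-10 libraries were spread, all of them above. The mean level was 30.8 ± 8.82 CPM over the MA-10 libraries and 12.9 ± 0.226 CPM over the STARKO1 libraries (SD, n = 3 each), with a log2 fold change of -1.25 (SE 0.231, adjusted p = 0.0265).

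Trp53, which encodes p53 itself, had an estimate in the opposite direction. It had 45.3, 26.7 and 25.0 CPM in MA-10 cells against 60.3, 60.1 and 67.9 CPM in STARKO1 cells. The groups did not overlap, MA-10 replicate 1 was nearest to STARKO1 cells, and the log2 fold change of 0.95 (SE 0.255, adjusted p = 0.0606) in edgeR's test did not pass the threshold. Transcript levels give no measure of p53 protein or activity. Of the other genes of the group, Trp53bp2, which encodes a p53-binding protein that favours apoptosis, had a log2 fold change of 0.47 (adjusted p = 0.0990), and Trp53i11, per kilobase of exon the most abundant, had 93.6, 81.1 and 73.2 CPM in MA-10 cells against 101, 90.5 and 99.6 CPM in STARKO1 cells and a log2 fold change of 0.23 (adjusted p = 0.309). Trp53inp2 and Trp53i13 had adjusted p values of 0.329 and 0.712.

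A list of 24 genes known to be activated by p53, none of them a member, was examined beside these. Of the 19 that were tested, 3 were lower in STARKO1 cells, against 4.74% of all genes, none was higher and 16 were not differentially expressed. At an unadjusted p under 0.05, 6 of the 19 differed, 2 higher and 4 lower, against 37.6% of all genes. The estimates were above 0 for 8 and below 0 for 11, with a median log2 fold change of -0.21. Eda2r, a receptor of the TNF receptor family, had 3.21, 1.91 and 1.67 CPM in MA-10 cells against 0.344, 0.413 and 0.281 CPM in STARKO1 cells and a log2 fold change of -2.70 (SE 0.394, adjusted p = 0.0138) in edgeR's test, from 56, 22 and 19 counts against 8, 7 and 5. Gadd45a, a growth arrest gene induced by DNA damage, had 122, 112 and 155 CPM in MA-10 cells against 71.0, 66.0 and 67.3 CPM in STARKO1 cells, a log2 fold change of -0.93 (SE 0.177, adjusted p = 0.0289). Tnfrsf10b, a death receptor for TRAIL, had 17.4, 16.1 and 17.7 CPM in MA-10 cells against 9.68, 10.8 and 10.7 CPM in STARKO1 cells, a log2 fold change of -0.72 (SE 0.151, adjusted p = 0.0371). For all 3 genes every STARKO1 library was below every MA-10 library. The next in order of p were Bbc3, a BH3-only protein that starts apoptosis, at -1.13 (adjusted p = 0.0616), and Sesn1, a sestrin, at 0.43 (adjusted p = 0.0801), which lie in opposite directions. Without MA-10 replicate 1, 11 of the 19 were differentially expressed (57.9%, against 65.5% of all genes), 5 higher and 6 lower. When any other library was left out, 0.731% to 4.21% of all genes passed, and 0 to 2 of the 19 did. With scaling by library size alone 0 of the 19 passed edgeR's test, against 2.76% of all genes. An unadjusted p under 0.05 was found for 4 of the 19, against 3461 of all 11939 genes.

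**Figure D3:**
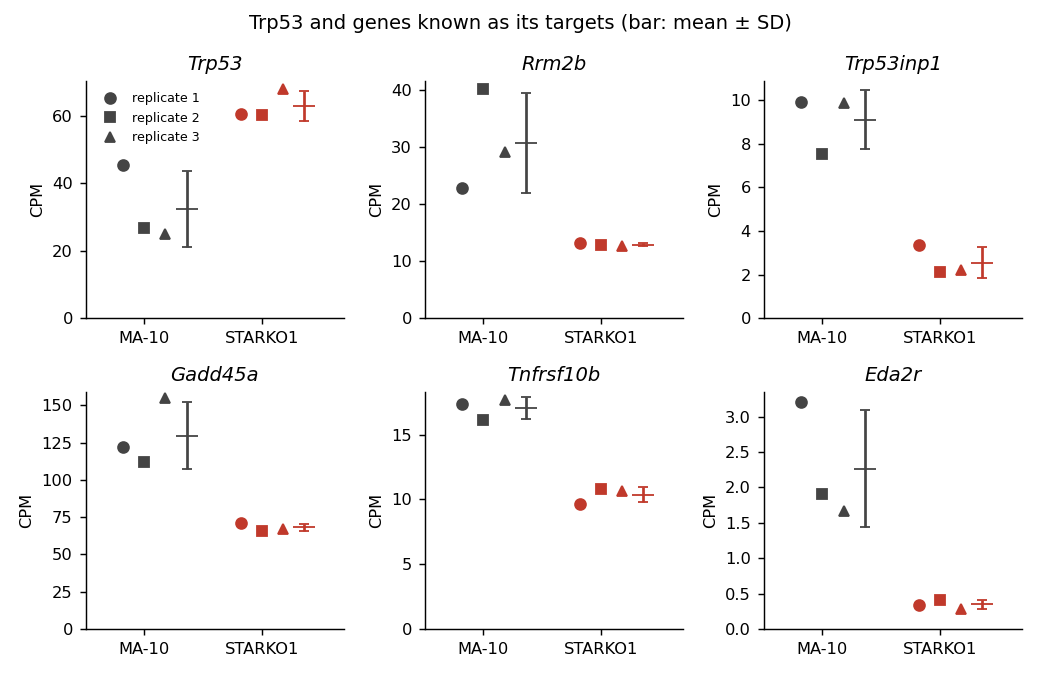
Level in CPM (vertical axes, from 0) of Trp53 and of 5 genes known as p53 targets that were differentially expressed, in each library, with the mean ± SD of 3 libraries beside the points. Trp53 lies higher in all STARKO1 libraries without passing the test, with a log2 fold change of 0.95, and the other 5 genes lie lower in all STARKO1 libraries. These 5 were chosen because they passed the test. Of the 19 tested genes of the p53 target list, 16 did not pass, and the 19 estimates were above 0 for 8 and below 0 for 11.

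In all 6 differentially expressed members MA-10 replicate 1 lay on the same side of the STARKO1 libraries as the other MA-10 libraries. In other members it did not, such as Poll, a polymerase that fills gaps in end joining, which had 7.62, 1.47 and 2.29 CPM in MA-10 cells against 6.80, 6.60 and 5.96 CPM in STARKO1 cells. MA-10 replicate 1 was above all STARKO1 libraries, the other MA-10 libraries were below them, and the log2 fold change was 0.73 (adjusted p = 0.353). Such a gene has a wide MA-10 spread, so the agreement in the 6 members partly follows from their passing the test. In Fanca MA-10 replicate 1 was still nearer to the mean of STARKO1 cells than to that of MA-10 replicates 2 and 3 on the log2 scale. All 6 differentially expressed members were among the 54 members differentially expressed without MA-10 replicate 1 (64.3% of the 84, against 65.5% of all genes). With MA-10 replicate 1 alone the spread came from the STARKO1 libraries, like which the lone library is assumed to vary, and 32 members passed, against 40.5% of all genes. With DESeq2, 15 members passed, the same 6 and 9 others, against 24.8% of all genes. With the replicate number as a block, under which 1.96% of all genes passed, Trp53inp1 remained differentially expressed (adjusted p = 0.0357 in edgeR's test), and the adjusted p was 0.0518 for Polq, 0.0632 for Fanca, 0.0708 for Rrm2b, 0.0881 for Parp3 and 0.0975 for Atr. Leaving out other libraries removed calls. Without MA-10 replicate 2, Atr, Polq, Rrm2b and Trp53inp1 passed, against 4.21% of all genes. Without MA-10 replicate 3 or STARKO1 replicate 1, 2 or 3 no member passed edgeR's test. Of all genes, 1.47%, 0.731%, 1.10% and 0.762% passed in that order, so few genes of any kind did. An unadjusted p under 0.05 was found for 15, 12, 10 and 13 members. Of all genes, 2992 of 12215, 2697 of 12174, 2756 of 12230 and 2626 of 12210 had one. None of the 6 changed direction in any of these fits.

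**Figure D4:**
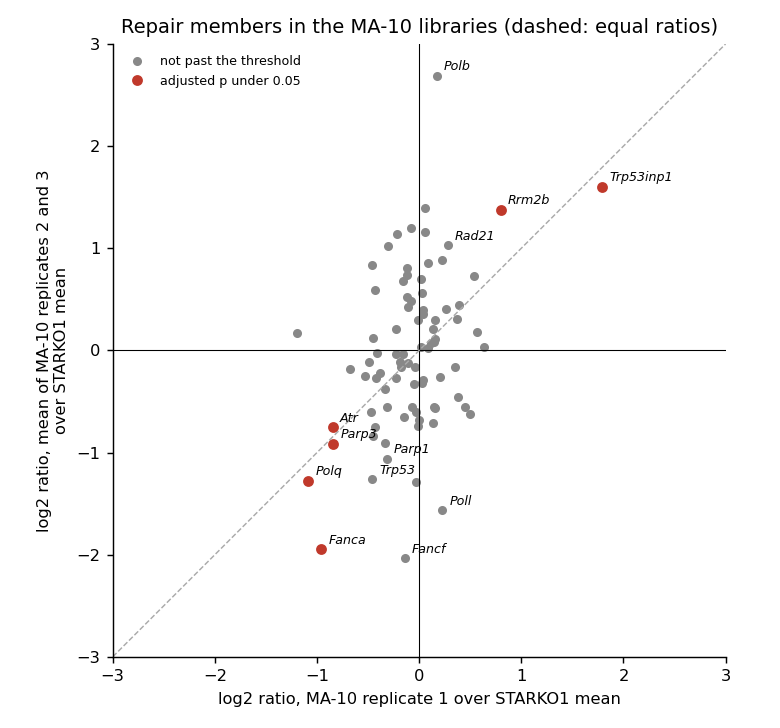
Log2 ratio to the mean of STARKO1 cells of MA-10 replicate 1 (horizontal axis) and of the mean of MA-10 replicates 2 and 3 (vertical axis) for the 84 tested members, each point 1 gene, with the dashed line at equal ratios. Both axes share the STARKO1 libraries. Polb, Poll and Fancf lie near 0 on the horizontal axis and far from 0 on the vertical axis, while the 6 differentially expressed members, in red, are away from 0 on both.

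**Figure D5:**
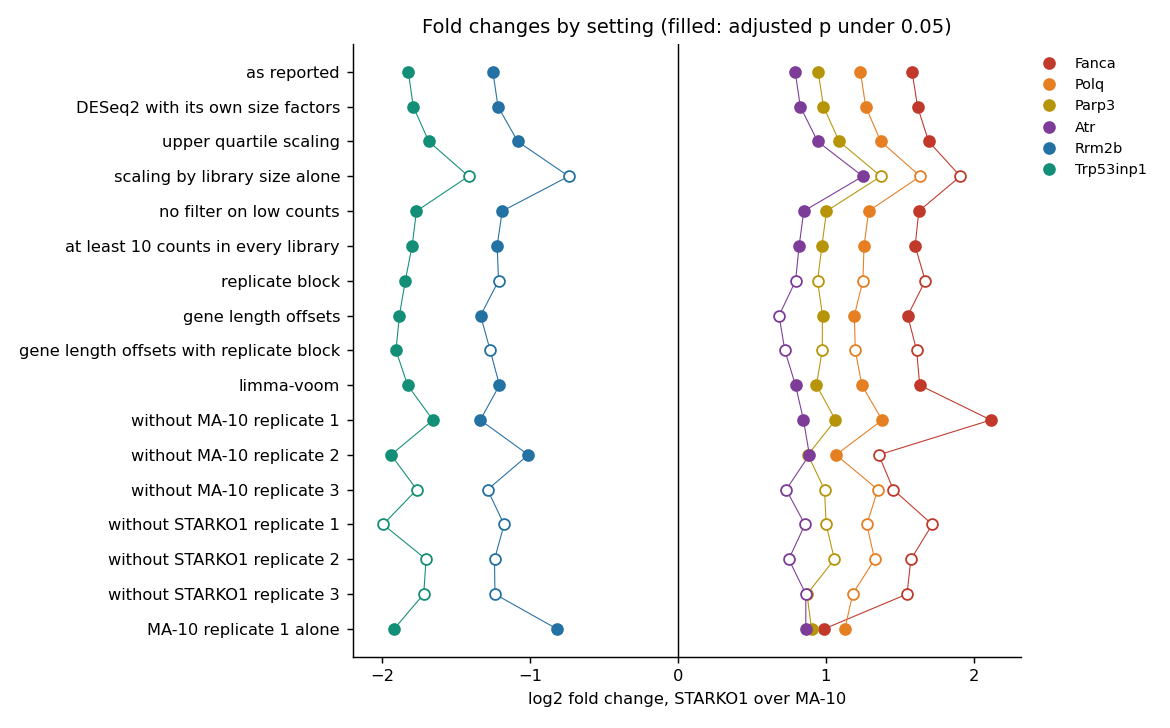
Log2 fold change of STARKO1 over MA-10 cells (horizontal axis) of the 6 differentially expressed members under each setting (vertical axis), filled where the adjusted p was under 0.05. The sign of each gene is the same in every setting, and Trp53inp1 is filled as reported and in 11 of the 16 alternatives.

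Compared per kilobase of exon, the members spanned a wide range of levels. Rad21 was the highest, with means of 298 and 168 CPM per kilobase in MA-10 and STARKO1 cells, followed by Parp1 with 62.2 and 106, Lig1 with 68.5 and 49.8 and Msh6 with 47.3 and 61.0. The differentially expressed members were all below the median member, with levels per kilobase of 1.61 and 3.12 for Parp3, 0.924 and 2.80 for Fanca, 1.04 and 2.45 for Polq, 1.03 and 1.79 for Atr, 3.37 and 1.41 for Rrm2b and 1.41 and 0.395 for Trp53inp1. Among the tested members, Fancc and Rad51b had the lowest levels over both cell lines after exon length was taken into account. Across the 84 members Pearson's r between the log2 fold change and the log2 exon length was 0.10, and over all 11884 tested genes with a length it was 0.12.

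Several members share sequence with other genes or overlap them. Trp53rka and Trp53rkb are near-identical copies of a gene for a kinase of transfer RNA modification, and their counts were not whole in all 6 libraries, so their split is uncertain. In all, 38 members had counts that were not whole in at least 1 library, among them Rad21 and Rad54b in 6, Rrm2b in 4 and Atr in 2. Trp53rka and Trp53rkb had log2 fold changes of -0.35 (adjusted p = 0.456) and 0.15 (adjusted p = 0.799). Of the other members not placed in a repair pathway, Ercc6l2, a relative of ERCC6, had 33.3, 39.3 and 43.9 CPM in MA-10 cells against 36.5, 30.8 and 33.7 CPM in STARKO1 cells and a log2 fold change of -0.20 (adjusted p = 0.387), and none of the 4 tested passed edgeR's test, DESeq2 or limma-voom, with 0 at an unadjusted p under 0.05. Parp3 overlaps Rrp9 on the opposite strand over 987 bases. Fanca overlaps Zfp276 on the opposite strand over 1446 bases and lies within Gm20388, an opposite-strand gene not analysed here. Rrm2b contains the pseudogene Gm3362 on its own strand and overlaps the antisense gene Gm49085, not analysed here, over 848 bases. Atr overlaps the antisense gene Gm16794 over 9737 bases, and 1700065D16Rik on the opposite strand over 726 bases and Gm24004 on its own strand over 178 bases, the last 2 not analysed here. The use of strand in counting is not given in the sources used here, so these pairs may share reads. Rrp9 had an estimate opposite to that of Parp3, with a log2 fold change of -0.91, and Zfp276 one in the direction of Fanca, at 0.67, and neither passed the threshold (adjusted p = 0.213 and 0.201 in edgeR's test). Gm3362 had 20, 44 and 44 counts in MA-10 cells and 20, 25 and 20 in STARKO1 cells, against 398, 464 and 332 and 306, 217 and 227 for Rrm2b. Gm16794 had 6, 2 and 2 counts in MA-10 cells and 3, 1 and 1 in STARKO1 cells. No other annotated gene overlaps Polq or Trp53inp1.

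Other genes of DNA repair were examined in a list of 90 that holds no member. Of the 88 tested, 6 were differentially expressed, 4 higher and 2 lower (6.82%, against 9.04% of all genes), and the median log2 fold change was -0.12. The higher genes were Exo1, an exonuclease of mismatch repair and end resection, Apex1 and Apex2, which cut DNA at sites without a base, and Gen1, which resolves Holliday junctions. Exo1 had 15.8, 16.7 and 15.8 CPM in MA-10 cells against 33.6, 34.8 and 35.6 CPM in STARKO1 cells, with little spread in either cell line, and a log2 fold change of 1.11 (SE 0.140, adjusted p = 0.00843) in edgeR's test. Apex1 had 37.2, 57.0 and 40.1 CPM in MA-10 cells against 107, 109 and 117 CPM in STARKO1 cells, a log2 fold change of 1.31 (SE 0.204, adjusted p = 0.0162). The estimates of Apex2 and Gen1 were 0.88 (adjusted p = 0.0465) and 0.69 (adjusted p = 0.0494). The lower genes were Faap20, a subunit of the Fanconi anemia core complex, at -1.09 (adjusted p = 0.0318), and Alkbh2, which reverses alkylation of bases, at -0.85 (adjusted p = 0.0407). The core complex thus had Fanca higher and Faap20 lower. With upper quartile scaling 5 genes of the list were higher and 1 was lower, and with scaling by library size alone 2 were higher and none was lower. Without MA-10 replicate 1, 59 passed (67.0%, against 65.5% of all genes), 23 higher and 36 lower. Without any other library 0 to 2 passed, against 0.731% to 4.21% of all genes. Under the replicate block, 0 of the 88 genes passed edgeR's test, against 1.96% of all genes. An unadjusted p under 0.05 was found for 25 of the 88, against 3692 of all 11939 genes.

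Because many repair genes are transcribed with the cell cycle, 28 proliferation genes were examined. None was differentially expressed in edgeR's test, against 9.04% of all genes. At an unadjusted p under 0.05 there were 7, and 8 were called by DESeq2 and 0 by limma-voom. Of all genes, 37.6%, 24.8% and 7.86% passed in that order. The median log2 fold change was -0.04. Their summed level was between 5456 and 6028 CPM in the MA-10 libraries and between 5637 and 5829 CPM in the STARKO1 libraries, so the sums overlapped. The 5 proliferation genes with the lowest p pointed in both directions. Mcm7 and Mcm5, subunits of the replicative helicase, had log2 fold changes of 0.98 (adjusted p = 0.0618) and 0.69 (adjusted p = 0.0674), and Pcna, the sliding clamp of replication, had 0.56 (adjusted p = 0.0663). Ccne1, cyclin E1, and Birc5, survivin, had -1.23 (adjusted p = 0.0623) and -1.24 (adjusted p = 0.0623). Without MA-10 replicate 1, 18 of the 28 genes passed (64.3%, against 65.5% of all genes), 8 higher and 10 lower.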

How the data were processed

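Total RNA of untreated MA-10 and STARKO1 cells was sequenced by the authors with a stranded kit, 3 libraries per cell line. The submitters' processing notes name the aligner STAR 2.6.1d, Partek and the build mm10. The authors deposited estimated counts per gene, not normalized, with replicates apart, and 6478 of 14774 genes had a value more than 0.001 from a whole number in at least 1 library. The counting settings are not given in the sources used here.

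After rounding, the counts were fitted over all genes in R 4.3.3 with edgeR 4.0.16 (filterByExpr, TMM, glmQLFit, glmQLFTest, Benjamini-Hochberg adjustment, threshold 0.05), on all 6 libraries without a block. The standard error is the log2 fold change divided by the square root of F. Exon lengths and coordinates came from GENCODE M21 of GRCm38, in which all 87 members were found. Alternatives were DESeq2 1.42.0, limma 3.58.1 (voom), other scalings and filters, gene length offsets, a replicate block and leaving out each library. MA-10 replicate 1 alone was added after seeing the data. The scripts were tested on simulated data for this comparison, where changes were given only to genes above a minimum mean count. Among 11903 genes, edgeR recovered 99% of those with 4-fold and 23% of those with 2-fold changes. The same spread was used for every gene and both cell lines, so recovery in the real libraries can differ.

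The members and lists were chosen with earlier results of these data known. Named genes were every differentially expressed member, in each role group the member with the largest change and the one with the highest level, a panel of 18 central genes, of which 3 are not reported here, the members below the filter and, of each other list, the 5 lowest p values and all calls. Other members named, Gen1, the genes that overlap members and the members with motif words were chosen after their values were seen. Fold changes at these depths are limited by the spread between libraries, with a common biological coefficient of variation of 0.291.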

Additional observations from a re-analysis of the deposited data

How the results depend on the processing

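All 6 differentially expressed members and Star kept their direction in all 16 alternatives, with Star between -5.23 and -4.58. The number of members that passed was 15 with DESeq2, 1 with scaling by library size alone, 1 with the replicate block, 1 with gene length offsets and the block, 32 with MA-10 replicate 1 alone, and 0 to 54 when 1 library was left out, the 54 without MA-10 replicate 1. In that order, all genes gave 3382, 330, 234, 227, 5086 and 89 to 7995, other repair genes 23, 2, 0, 1, 34 and 0 to 59, and p53 targets 6, 0, 1, 1, 12 and 0 to 11. Of the proliferation genes, 8 passed with DESeq2, 18 with MA-10 replicate 1 alone and 0 to 18 when 1 library was left out. All genes gave 692 with at least 10 counts in every library, other repair genes 3 without the filter, and p53 targets 1 with upper quartile scaling. The cause of these differences was not tested. Of the calls made on data simulated for STARKO1 against MA-10, 15.6% were false with DESeq2 over 11909 genes and 5.43% with edgeR over 11903. These data were drawn with a coefficient of variation of 0.291 for every gene and both cell lines. The unequal resemblance of the MA-10 libraries was not simulated, so these shares do not say which calls are false here. A length bias was also simulated in MA-10 replicates 2 and 3, with a smaller spread between libraries than in the first simulation. There 47.7% of edgeR's calls were false without length offsets over 11972 genes and 4.52% with them over 11918. The size of this bias was set by choice and not estimated from the data, so these shares are no false call rates of the comparison reported here.

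Several members that did not pass the threshold changed direction. With scaling by library size alone the log2 fold change was 0.21 for Brca1, 0.079 for Chek1, 0.26 for Ercc6l2, 0.10 for Polh, 0.32 for Rad23b, 0.21 for Trp53rka, 0.090 for Xpc and 0.41 for Xrcc6. With upper quartile scaling it was 0.037 for Rad23b and 0.081 for Xrcc6. With MA-10 replicate 1 alone it was 0.11 for Brca1, -0.14 for Chek2, 0.022 for Ercc6l2, -0.20 for Fancd2, 0.22 for Pms1, 0.13 for Rad50, 0.46 for Trp53rka, 0.082 for Xrcc5 and 0.23 for Xrcc6. When 1 library was left out, it lay between -0.017 (without MA-10 replicate 2) and 0.35 for Fancd2, between -0.43 and 0.047 (without MA-10 replicate 1) for Polh, between -0.55 and 0.046 (without MA-10 replicate 2) for Trp53rka, between -0.13 and 0.093 (without MA-10 replicate 2) for Xrcc6, and between -0.14 and 0.0015 (without MA-10 replicate 1) for Rad23b.

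The labels number the libraries but do not pair them. Deviations from the group means correlated at -0.0166, 0.0455 and 0.0200 between libraries of the same number, so the block was not taken as a pairing, and under it 1 member and 234 genes passed. The 3 libraries per cell line and the spread among the MA-10 libraries limited what could be detected.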
